A study of Mus musculus with 14 samples.

Results

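The genes described here encode feedback inhibitors of MAP kinase signalling: 7 dual-specificity MAP kinase phosphatases (Dusp1, Dusp2, Dusp4, Dusp5, Dusp6, Dusp10 and Dusp16), 2 Sprouty proteins (Spry1 and Spry2) and 1 Sprouty-related protein (Spred1). They were chosen by name, as the rows of the count table whose symbol equals 1 of these 10 names. The rule uses no measured value, but the names were put together with earlier results of these data known, so the directions below are those of a list that was not blind to them. All 10 were found among the 24091 genes listed, and all 10 had enough reads to be among the 12248 genes tested. The RNA came from T cells sorted from the spleen of transgenic C57Bl/6j mice, 200000 cells from each mouse, and each of the 14 mice gave 1 library. The 8 mice called CP CML were Mir142+/+BCR-ABL, a model of chronic phase chronic myeloid leukemia, and the 6 mice called BC CML were Mir142−/−BCR-ABL, a model of blast crisis. In both groups BCR-ABL was driven by SCL-tTA, a transactivator active in blood stem and progenitor cells, and had been switched on for 3 weeks by withdrawing tetracycline (tet-off). The mice were 6 to 10 weeks old and of both sexes. Mir142 was missing from every cell of the BC CML mice and not only from their T cells, all mice carried BCR-ABL, and the series analysed here holds no non-leukemic T cells, so the comparison is of Mir142 genotype, and of the disease that goes with it, among leukemic animals.

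MAP kinases are switched on by phosphorylation of a threonine and a tyrosine in their activation loop, and the dual-specificity phosphatases switch them off by removing both phosphates. Dusp1, Dusp2, Dusp4 and Dusp5 encode nuclear enzymes whose transcription is induced by the same signals that they end, Dusp6 encodes a cytoplasmic enzyme selective for ERK, and Dusp10 and Dusp16 encode enzymes that act mainly on JNK and p38. Sprouty and Spred proteins act further upstream, between the receptor and Raf, where Spred1 brings the Ras-GAP neurofibromin to the membrane. In T cells the Ras-ERK branch is engaged by the antigen receptor and by cytokine receptors, and several of these inhibitors, such as Dusp6, Spry2 and Dusp5, are themselves transcribed in response to ERK.

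Because the deleted gene encodes a microRNA, the sequences of its mature arms and of the matches to them in the 10 genes are shown before the values. A microRNA pairs with its targets mainly through its seed, bases 2 to 8 from the 5′ end, printed in capitals below. Both arms come from the plus strand of chromosome 11, the 5p arm from chr11:87756867-87756887 and the 3p arm from chr11:87756903-87756925 (RefSeq, GRCm38.p6, the mm10 build of the count table).
mmu-miR-142a-5p: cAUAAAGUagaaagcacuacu
mmu-miR-142a-3p: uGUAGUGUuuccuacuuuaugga

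The longest 3′UTR of each gene in the GENCODE vM21 annotation was searched for the 8-base match to each seed followed by A, ACACTACA for the 3p arm and ACTTTATA for the 5p arm, and for the 7-base parts of each, which were ACACTAC and the shifted CACTACA for the 3p arm, with ACTTTAT and the shifted CTTTATA for the 5p arm. Of the 10 genes, 3 held a match, and each is printed 5′ to 3′ with the match in capitals and up to 8 bases on each side. The match of Dusp16 is an 8-base match to the 3p arm on the minus strand at chr6:134715826-134715833, bases 2051 to 2058 of a 3′UTR of 2416 bases. That of Spred1 is a 7-base match to the 3p arm at chr2:117179409-117179415, bases 1460 to 1466 of 4330. That of Dusp2 is an 8-base match to the 5p arm at chr2:127338309-127338316, bases 514 to 521 of 581.
Dusp16: acagtcatACACTACAgctgtcag
Spred1: tgaaaatcACACTACcatttgaa
Dusp2: gaaacagcACTTTATAtttatata

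The 3′UTRs of Dusp1, Dusp4, Dusp5, Dusp6, Dusp10, Spry1 and Spry2, between 690 and 1190 bases long, held none of these matches. A match to either arm was common: 30.7% of the 11506 tested genes with an annotated 3′UTR had at least 1, so 3 of 10 is close to the share over all genes. The separate shares were 12.1% for any match to the 3p arm, 3.03% for its 8-base match, 23.5% for any match to the 5p arm and 5.21% for its 8-base match. A match is a stretch of letters, and binding was not measured here.

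The libraries were of similar depth, with 15703702 to 19914531 counted reads in CP CML and 16145537 to 19399720 in BC CML. Mir142 itself had 302 to 650 reads in each CP CML mouse and 0 reads in each BC CML mouse. The column names of all CP CML mice hold 1 number and those of all BC CML mice a different number, whose meaning is not given in the sources used here, so whatever it stands for cannot be told apart from genotype. Replicates are separate mice. In bulk RNA a lower value can come from fewer cells of a type or from less RNA per cell, and these cannot be told apart.

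Of these 10 inhibitors 6 were called higher in BC CML T cells, 5 of them with no overlap between the groups, while the call of the other, Dusp1, was lost in several settings given below. Spry2, Dusp16 and Dusp6 rose by about 4.0-, 2.8- and 2.7-fold, Dusp2 and Spred1 by about 1.8-fold, and Dusp1 by 1.3-fold. Dusp10 was the only 1 of the 10 called lower, at 0.83 of its CP CML level, and Dusp4, Dusp5 and Spry1 did not pass the test. The estimate for Spry1, 0.79 of its CP CML level, was lower still, and it was called when 1 mouse was left out, as given below. Added together, the 10 transcripts made up 287.4 to 381.4 CPM (counts scaled to a common library total, with TMM normalization) among the CP CML mice, with a median of 340.7, and 477.5 to 564.0 CPM among the BC CML mice, with a median of 516.2, so the sums of the groups did not overlap.

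These calls come from edgeR's quasi-likelihood test over all 12248 genes with a Benjamini-Hochberg adjusted p below 0.05, and the background of this comparison is high. Over all tested genes, 65.2% were called in either direction, 32.6% higher and 32.7% lower in BC CML. Of the 10 inhibitors, 7 were called, 6 higher and 1 lower. The groups did not overlap, with BC CML the higher, for 5 of the 10 (Dusp2, Dusp6, Dusp16, Spry2 and Spred1), against 19.3% of all genes, and 3 of the 10 (Dusp6, Dusp16 and Spry2) were called with a rise of at least 2-fold, against 10.1%. The median log2 fold change of the 10 was 0.62, and that of all tested genes was -0.01. The share called, 7 of 10, lies near the background, and 6 of these 7 calls were in the higher direction, against about equal numbers in each direction over all genes. As the names were put together with earlier results known, this difference in direction is a description and not a test. The 4 tested relatives described below were called 2 higher and 2 lower.

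**Figure D1:**
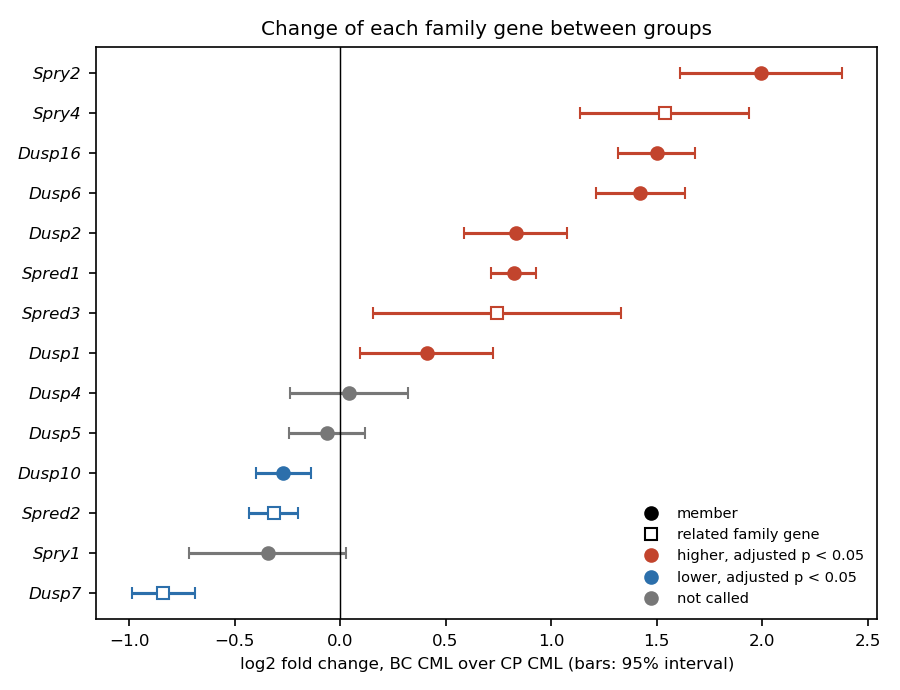
Log2 fold change of BC CML over CP CML T cells (x axis) for each of the 10 genes (filled circles) and for 4 related family genes (open squares), with bars for the 95% interval and colour for the call at an adjusted p of 0.05. Spry2, Dusp16 and Dusp6 sit to the right with log2 fold changes of 1.99, 1.50 and 1.42, the intervals of Dusp4, Dusp5 and Spry1 span 0, and Dusp10 lies to the left at -0.27.

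Spry2, an inhibitor of receptor signalling to Ras, is listed on the minus strand at chr14:105891947-105896819. Its 8 CP CML values ran from 3.01 to 6.10 CPM (median 5.02) and its 6 BC CML values from 12.1 to 28.9 CPM (median 18.3). The lowest BC CML mouse, at 12.1, was well above the highest CP CML mouse, at 6.10, and the BC CML mice were spread widely among themselves. The means were 4.82 ± 1.00 (SD, n = 8) and 19.2 ± 6.52 (SD, n = 6), with a log2 fold change of 1.99 (SE 0.20, adjusted p = 2.06e-07, edgeR quasi-likelihood test). Of all tested genes, 3.66% had a larger absolute log2 fold change. The values rest on 59 to 105 reads per mouse in CP CML and 230 to 464 in BC CML.

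Its relative Spry1 (chr3:37639947-37644599, plus strand) did not pass the test. It ranged from 4.91 to 10.4 CPM in CP CML (median 7.65) and from 3.30 to 7.91 in BC CML (median 5.59), so the groups overlapped, with 1 of the 6 BC CML mice above the CP CML median. The log2 fold change was -0.34 (95% interval -0.72 to 0.03, adjusted p = 0.124, edgeR quasi-likelihood test). Without BC CML replicate 5, the highest mouse of its group, it was -0.47 with an adjusted p of 0.0389, so this gene's side of the threshold rests on that mouse. A transcript annotated on the opposite strand overlaps an exon of Spry1, and reads of the pair could not be told apart if counting ignored strand.

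Spred1, which recruits neurofibromin to Ras, is listed on the plus strand at chr2:117121071-117182277 and carries the 7-base match to the 3p arm printed above. Its CP CML values lay close together, from 15.7 to 19.0 CPM with a median of 17.4, and its BC CML values lay from 27.7 to 34.1 with a median of 31.1. The gap between the groups, from 19.0 to 27.7, was wider than the range within either. The means were 17.5 ± 0.954 (SD, n = 8) and 30.9 ± 2.21 (SD, n = 6), and the log2 fold change of 0.82 had the smallest SE of the 10 genes, 0.06 (adjusted p = 5.98e-10, edgeR quasi-likelihood test). The spread among mice was 5.46% of the mean in CP CML and 7.15% in BC CML.

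Dusp6, the cytoplasmic ERK phosphatase, is listed on the plus strand at chr10:99263231-99267489. Its 8 CP CML values ranged from 27.2 to 46.0 CPM (median 36.5) and its 6 BC CML values from 88.7 to 119.1 (median 96.9). BC CML replicates 1 and 2, at 119.1 and 118.7, and replicate 4, at 104.1, stood above the other 3, which lay between 88.7 and 89.7, and each of the 6 was above all CP CML mice. The means were 37.9 ± 6.07 (SD, n = 8) and 101.7 ± 14.5 (SD, n = 6), with a log2 fold change of 1.42 (SE 0.11, adjusted p = 1.35e-08, edgeR quasi-likelihood test).

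Among the 4 inducible nuclear phosphatases, Dusp2 and Dusp1 were called higher, and Dusp4 and Dusp5 did not pass the test. Dusp2 (chr2:127336159-127338377, plus strand), a phosphatase first known from activated lymphocytes, ranged from 69.0 to 117.4 CPM in CP CML (median 79.1) and from 141.9 to 180.7 in BC CML (median 151.7). The CP CML mice fell into a lower set of 5 between 69.0 and 85.5 and 3 mice (replicates 2, 3 and 7) between 103.3 and 117.4, and all 6 BC CML mice were higher still. The means were 87.0 ± 19.5 (SD, n = 8) and 155.0 ± 13.3 (SD, n = 6), with a log2 fold change of 0.83 (SE 0.13, adjusted p = 3.62e-05, edgeR quasi-likelihood test). Its 3′UTR holds the 8-base match to the 5p arm.

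Dusp1 (chr17:26505591-26508472, minus strand), an early-response gene that is also induced by stress, ranged from 58.9 to 119.8 CPM in CP CML (median 74.5) and from 84.7 to 137.0 in BC CML (median 104.4). All 6 BC CML mice were above the CP CML median, but CP CML replicate 6, at 119.8, was higher than 4 of them. The log2 fold change was 0.41 (SE 0.16, adjusted p = 0.0368, edgeR quasi-likelihood test). Among the settings that ended this call were leaving out any 1 of CP CML replicates 1, 3, 4, 7 and 8 or BC CML replicates 1, 2 and 4, where the adjusted p was between 0.0570 and 0.0950, and using no filter on low counts (0.0586).

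Dusp4 and Dusp5 did not pass the test, and their groups overlapped. Dusp4 (chr8:34807610-34819894, plus strand) ranged from 5.66 to 9.13 CPM in CP CML (median 7.57) and from 5.17 to 10.3 in BC CML (median 7.36), with a log2 fold change of 0.04 (95% interval -0.24 to 0.32, adjusted p = 0.816, edgeR quasi-likelihood test). Dusp5 (chr19:53529318-53541322, plus strand), which is selective for ERK, ranged from 11.2 to 15.8 CPM (median 12.3) and from 10.1 to 14.5 (median 11.8), with a log2 fold change of -0.06 (95% interval -0.24 to 0.12, adjusted p = 0.565, edgeR quasi-likelihood test). An exon of Dusp5 is overlapped by an antisense transcript, with the same limit as for Spry1.

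The JNK and p38 phosphatases moved apart. Dusp16 (chr6:134715468-134792628, minus strand), with the 8-base match to the 3p arm, ranged from 6.02 to 9.0 CPM in CP CML (median 6.96) and from 17.5 to 23.0 in BC CML (median 20.1). The gap between the groups was wider than the range within either. The means were 7.18 ± 1.07 (SD, n = 8) and 20.3 ± 1.93 (SD, n = 6), with a log2 fold change of 1.50 (SE 0.09, adjusted p = 2.28e-10, edgeR quasi-likelihood test), the lowest p of the 10 genes.

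Dusp10 (chr1:184034461-184075636, plus strand) was lower in BC CML by a small amount. It ranged from 57.1 to 77.0 CPM in CP CML (median 69.2) and from 52.2 to 62.9 in BC CML (median 56.5), so that the ranges met between 57.1 and 62.9, while none of the 6 BC CML mice was above the CP CML median. The means were 68.9 ± 7.22 (SD, n = 8) and 57.2 ± 4.28 (SD, n = 6), and Dusp10 fell by 0.27 on the log2 scale (SE 0.07, adjusted p = 0.00192, edgeR quasi-likelihood test). A change of this size was ordinary in this comparison: 51.2% of all tested genes had a larger absolute log2 fold change.

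**Figure D2:**
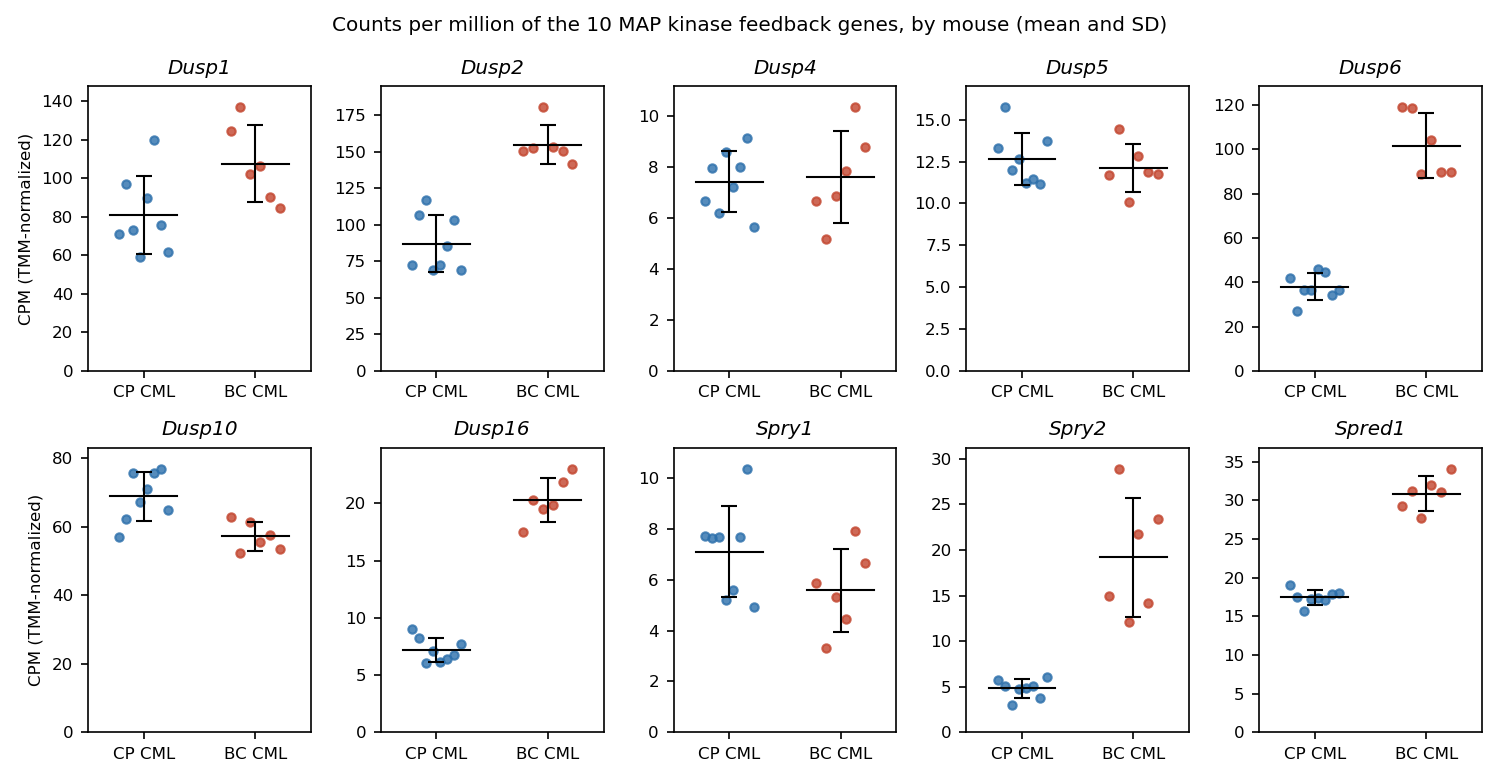
TMM-normalized CPM (y axis, from 0) of each of the 10 genes in the 8 CP CML and 6 BC CML mice, 1 point per mouse, with a line at the group mean and bars for the SD. The groups are apart for Dusp2, Dusp6, Dusp16, Spry2 and Spred1 and overlap for the other genes, as in Dusp1, where the highest CP CML mouse reached 119.8 CPM.

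Levels of different genes can be compared only per length, so CPM was divided by the gene length listed with the counts, in kilobases. On this scale Dusp2 was the highest of the 10 in both groups, at 53.9 ± 12.1 CPM per kb in CP CML (SD, n = 8) and 96.0 ± 8.22 in BC CML (SD, n = 6), followed by Dusp1 at 41.8 ± 10.5 and 55.5 ± 10.4. In CP CML the order then ran through Dusp10 (25.4 CPM per kb), Dusp6 (13.6), Dusp5 (11.0), Dusp4 (3.06), Spry1 (2.85), Spred1 (2.47) and Spry2 (2.31) to Dusp16 (0.953). Neighbours whose ranges overlapped were Dusp2 and Dusp1, Dusp6 and Dusp5, and the run Dusp4, Spry1, Spred1 and Spry2.

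In BC CML the order was changed by the genes that rose. Dusp6, at 36.4 CPM per kb, stood above Dusp10 at 21.1, with Dusp6 the higher in all 6 mice, where Dusp10 had been the higher in all 8 CP CML mice. Spry2 came to 9.21 CPM per kb, overlapping Dusp5 at 10.5, and Spred1 followed at 4.36. Dusp4 (3.14), Dusp16 (2.70) and Spry1 (2.24) came last, and Spred1 with Dusp4, Dusp4 with Dusp16, and Dusp16 with Spry1 overlapped in range. Dusp16, the lowest of the 10 in every CP CML mouse, was thus within the range of Dusp4 and Spry1.

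**Figure D3:**
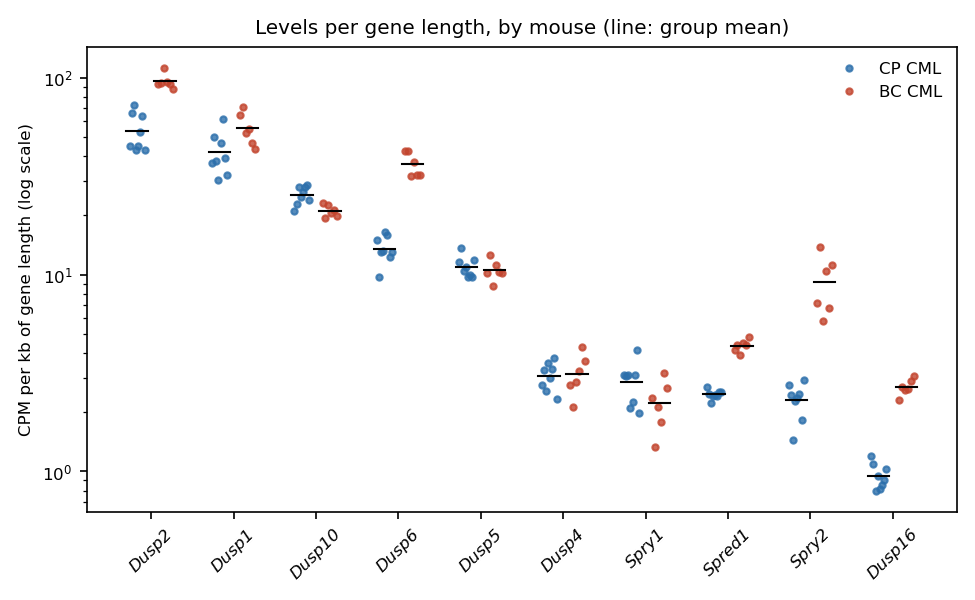
CPM per kilobase of gene length (y axis, log scale) for the 10 genes in order of their CP CML mean, 1 point per mouse, with a line at the group mean. Dusp2 and Dusp1 are the most abundant in both groups, and the BC CML points of Dusp6, at a mean of 36.4, stand above those of Dusp10, at 21.1.

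The same families hold 7 further genes: Dusp7, Dusp8, Dusp9, Spry3, Spry4, Spred2 and Spred3. Of these, Spry3 was not analysed here, Dusp8 (0 to 9 reads per mouse) and Dusp9 (1 to 13 reads) were too low for the test, and the remaining 4 were all called, 2 higher and 2 lower. The count of calls was 3 with the filter of above 1 CPM in 6 or more samples and without any 1 of CP CML replicates 3, 4, 5 and 6 or BC CML replicates 2, 4 and 5. Dusp7, the closest relative of Dusp6 and like it a cytoplasmic ERK phosphatase, had 45.8 to 66.5 CPM in CP CML (median 50.01) and 26.9 to 32.4 CPM in BC CML (median 29.0), and here the BC CML mice were all the lower. It fell by 0.84 on the log2 scale (SE 0.08, adjusted p = 3.28e-08, edgeR quasi-likelihood test). Spred2 also fell, from 33.3 ± 1.87 CPM (SD, n = 8) to 26.8 ± 2.54 (SD, n = 6), by 0.31 on the log2 scale (SE 0.06, adjusted p = 0.000164, edgeR quasi-likelihood test), again without overlap. Spry4 was at 5 to 16 reads per mouse in CP CML and 28 to 43 in BC CML, and it rose by 1.54 on the log2 scale (SE 0.20, adjusted p = 3.54e-06, edgeR quasi-likelihood test), and Spred3 rose by 0.74 (SE 0.30, adjusted p = 0.0367, edgeR quasi-likelihood test) at 0.626 and 1.04 CPM.

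In several pairs of relatives, then, the balance within a library differed between the groups. The ratios below are of CPM per kb within each mouse, for 4 pairs chosen after their values had been seen, and are given without a test. Dusp6 over Dusp7 ranged from 0.594 to 1.15 in CP CML (median 0.828) and from 3.18 to 5.08 in BC CML (median 3.82). Dusp16 over Dusp10 ranged from 0.0286 to 0.0566 (median 0.0349) and from 0.0998 to 0.155 (median 0.132). Spry2 over Spry1 ranged from 0.438 to 1.49 (median 0.846) and from 2.14 to 10.5 (median 3.62), and Spred1 over Spred2 from 0.253 to 0.307 (median 0.280) and from 0.571 to 0.642 (median 0.620). No CP CML mouse reached the BC CML range in any of the 4, and Spry2 over Spry1 varied the most among BC CML mice. For Dusp6 with Dusp7 and Spred1 with Spred2, both genes already differed without overlap in opposite directions, so those ratios had to separate. In the other pairs the first gene was already without overlap by itself.

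**Figure D4:**
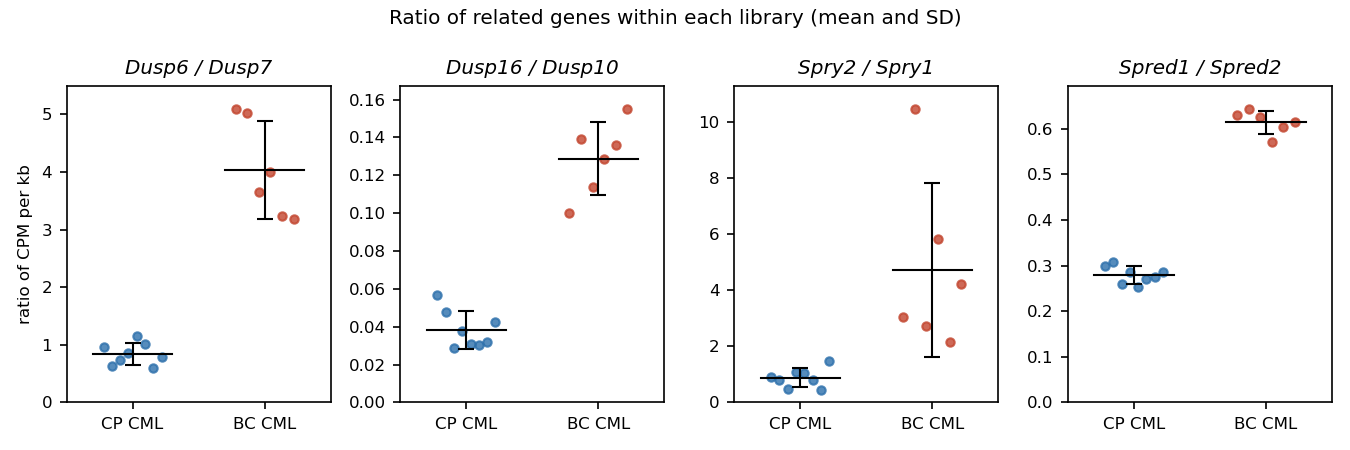
Ratio of CPM per kb of 2 related genes within each library (y axis, from 0) in CP CML and BC CML, 1 point per mouse, with the group mean and SD. All 4 ratios are higher in every BC CML mouse, with medians of 3.82 against 0.828 for Dusp6 over Dusp7 and 0.620 against 0.280 for Spred1 over Spred2.

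The spread among mice of 1 group differed between the genes. As a share of the mean, the SD in CP CML ran from 5.46% for Spred1 to 25.3% for Spry1 and 25.1% for Dusp1, and in BC CML from 7.15% for Spred1 to 29.1% for Spry1 and 34.0% for Spry2. Dusp2 varied by 22.4% in CP CML and 8.56% in BC CML. Correlations of log2 CPM between mice were computed within each group, for the 45 pairs of these genes and for each gene with the summed level of 3 lists (transcripts induced by handling, myeloid markers and naive T cell markers), 150 relations in all. None had an adjusted p below 0.05 and 16 had an unadjusted exact permutation p below 0.05, and the smallest adjusted p was 0.312. With 6 mice the exact p has a floor that a single BC CML relation could not bring below 0.05 after this adjustment. In CP CML, Dusp10 and Dusp16 had Pearson's r = -0.91 (two-sided exact permutation p = 0.00213, adjusted 0.312) and Spearman's coefficient = -0.83 (exact p = 0.0154, adjusted 0.50), and r was -0.93 without the 2 mice farthest from the median of Dusp10. In BC CML, Dusp1 and Dusp6 had r = 0.92 (exact p = 0.0167, adjusted 0.312) and Spearman's coefficient = 0.71 (exact p = 0.136, adjusted 0.704), with r = 0.91 without the 2 farthest mice. In CP CML they had r = 0.15 (exact p = 0.721) and Spearman's coefficient = 0.05 (exact p = 0.935), with r = 0.60 without the 2 farthest mice, and the difference between the groups was not tested. These values describe the 6 and 8 mice at hand.

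Other MAP kinase genes were examined as fixed lists, each described by its count of calls and its median log2 fold change. Among 15 atypical dual-specificity phosphatases, small enzymes without the MAP kinase-binding domain, 9 were tested, with 3 higher, 3 lower and 3 not called, and a median of 0.09, and 5 of the 15 had 0 reads in all mice. Dusp3, which acts on ERK and JNK, rose from 1.82 ± 0.343 CPM (SD, n = 8) to 6.39 ± 0.787 (SD, n = 6), a log2 fold change of 1.81 (SE 0.13, adjusted p = 1.70e-09, edgeR quasi-likelihood test). Dusp22, a phosphatase of the antigen receptor kinase Lck, rose by 0.78 (SE 0.09) and Dusp12 fell by 0.44 (SE 0.08) on the same scale. Of the 3 tyrosine phosphatases that bind MAP kinases, 2 were tested, and Ptpn7, which dephosphorylates ERK in lymphoid cells, rose from 160.3 ± 15.3 to 232.3 ± 32.0 CPM, a log2 fold change of 0.54 (SE 0.08, adjusted p = 2.15e-05, edgeR quasi-likelihood test), and 1 was not called.

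The kinases and Ras regulators themselves moved in both directions. Of the 23 genes of the Ras to ERK cascade, 11 were higher, 7 lower and 5 not called, with a median log2 fold change of 0.13. Rasgrp3 and Rasgrp4, exchange factors that load Ras with GTP, rose by 2.01 (SE 0.47, adjusted p = 0.00175, edgeR quasi-likelihood test) and 1.19 (SE 0.16). Rasgrp3 went from 2.64 ± 1.71 to 10.6 ± 7.12 CPM (SD) with overlap between the groups, and Rasgrp4 from 3.03 to 6.90 CPM without overlap. Both were low, and the cell type that they came from was not tested. Rasa1, a GTPase-activating protein that ends Ras signalling, rose from 170.9 ± 8.88 to 318.9 ± 23.9 CPM, a log2 fold change of 0.90 (SE 0.05). Of 14 genes of the JNK and p38 cascade, 13 were tested, with 5 higher, 2 lower and 6 not called and a median of -0.01. Mapkapk3 and Mapkapk2, kinases downstream of p38, rose by 0.83 (SE 0.08) and 0.39 (SE 0.05), and Mapk9, which encodes JNK2, rose by 0.39 (SE 0.05).

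Transcripts that ERK signalling induces were called in both directions. Of 20 listed, 16 were tested, with 4 higher, 4 lower and 8 not called, and a median log2 fold change of 0.01, beside -0.01 over all tested genes. The ETS factor gene Etv5 rose from 4.36 ± 0.793 CPM (SD, n = 8) to 8.51 ± 1.51 (SD, n = 6), a log2 fold change of 0.96 (SE 0.14, adjusted p = 8.83e-06, edgeR quasi-likelihood test), without overlap between the groups. Ccnd1, the cyclin D1 gene, rose by 2.23 (SE 0.52, adjusted p = 0.00164, edgeR quasi-likelihood test) from 1.41 CPM, and Ier3, an early-response gene, fell by 0.70 (SE 0.20). The other 5 called genes of the list, named here after their values were seen, were Jun and Phlda1, which rose by 0.47 (SE 0.16) and 0.42 (SE 0.14), and Ier2, Junb and Egr2, which fell by 0.56 (SE 0.08), 0.40 (SE 0.10) and 0.39 (SE 0.16). Of the 8 not called, also named after their values were seen, Fosb had the highest log2 fold change, 0.80 (95% interval -0.07 to 1.66), and Fos the lowest, -0.24 (95% interval -0.58 to 0.11), and Egr1, Egr3, Fosl2, Myc, Nr4a1 and Emp1 lay between -0.12 and 0.09. Of the 4 not tested, the groups did not overlap for Epha2, with 0 to 3 reads per mouse in CP CML and 5 to 17 in BC CML.

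Early genes are also induced while cells are isolated, and Dusp1 is known to respond to such stress, so 11 transcripts induced by handling and heat shock were examined beside them. Of 10 tested, 3 were higher, 2 lower and 5 not called, with a median of 0.17. Hspa1b, a heat shock protein gene, rose by 2.84 (SE 0.56, adjusted p = 0.000392, edgeR quasi-likelihood test) from 0.572 CPM, Jun rose by 0.47 (SE 0.16), and Ier2 fell by 0.56 (SE 0.08). The summed level of the list ran from 2251 to 3718 CPM in CP CML and from 2459 to 3523 in BC CML, so the sums overlapped, and Hspa8, a constitutive heat shock gene with 1401 and 1643 CPM (not called), made up most of them. In 2 low genes, named after their values were seen, the groups did not overlap: Atf3, a stress-induced factor gene, rose from 0.285 to 2.11 CPM, by 2.85 on the log2 scale (SE 0.34, adjusted p = 1.11e-06, edgeR quasi-likelihood test), and Hspa1a, which was not tested, had 0 to 5 reads per mouse in CP CML and 10 to 64 in BC CML. The correlation of the summed list with Dusp1 was r = 0.70 in CP CML (exact permutation p = 0.0604) and r = 0.70 in BC CML (exact permutation p = 0.117), and Spearman's coefficient was 0.62 (exact p = 0.115) and 0.60 (exact p = 0.242). Without the 2 mice farthest from the median of the list, r was 0.23 in CP CML and 0.83 in BC CML. For Dusp6 r was 0.67 in CP CML (exact permutation p = 0.0765) and 0.54 in BC CML (exact permutation p = 0.289). Spearman's coefficient was 0.57 (exact p = 0.151) and 0.43 (exact p = 0.419). Without the 2 farthest mice r was -0.07 and 0.85. The other genes that rose, Dusp2, Dusp16, Spry2 and Spred1, had r of -0.24, -0.45, 0.24 and -0.14 in CP CML. In BC CML they had 0.16, -0.41, -0.06 and -0.49. The part of handling in the values of these genes was not tested.

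**Figure D5:**
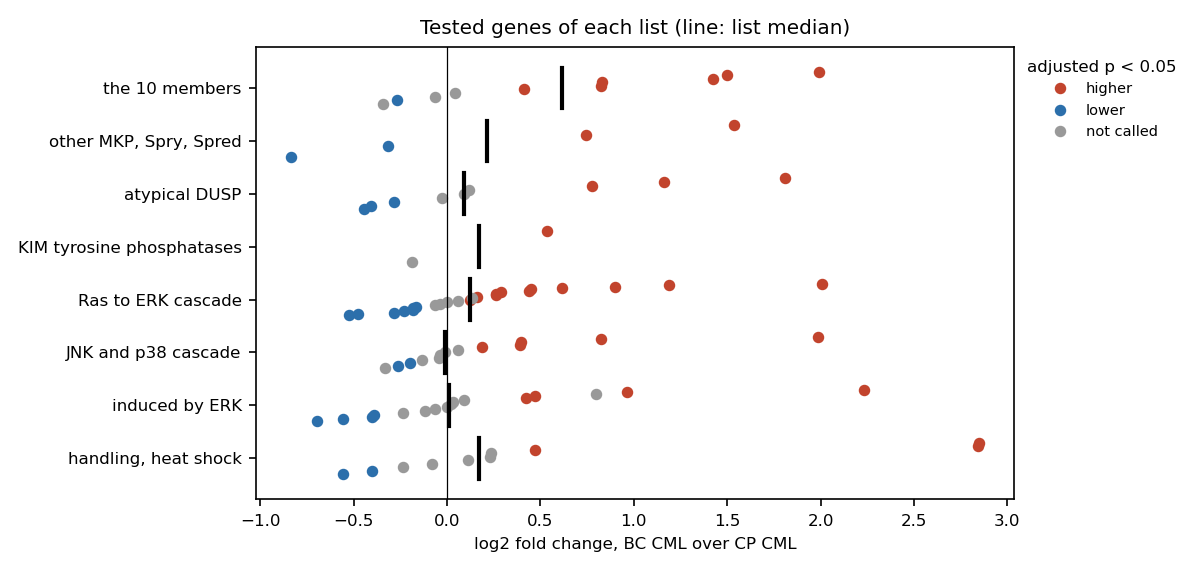
Log2 fold change of BC CML over CP CML (x axis) of each tested gene of the 10 feedback inhibitors and of 7 related lists, coloured by the call at an adjusted p of 0.05, with a vertical bar at the list's median. The median of the 10 is 0.62, and those of the other lists lie between -0.01 and 0.21.

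For each of the 5 inhibitors with an absolute log2 fold change of at least 0.5 that were called, the genes with the most similar profile over the 14 mice were found by the root mean square (RMS) difference of log2 CPM, each profile centred on its own mean, among 9153 candidates. For Spred1 these were Cdyl2, a chromodomain protein gene (RMS 0.057), and Stam2, an endosomal sorting gene (0.078). For Dusp16 they were Gsn, which encodes the actin-severing protein gelsolin (0.101), and Sypl (0.132), and for Dusp6 Gem, a small GTPase gene (0.140), and Cdh24, a cadherin gene (0.141). For Dusp2 they were Klhdc10 (0.195) and Fuca2, a fucosidase gene (0.198), and for Spry2 Pdgfb, a growth factor gene (0.254), and Arhgap21, a GTPase-activating protein gene (0.288). The fits were closest for Spred1 and loosest for Spry2, which had the most variable BC CML values.

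Markers of T cells and of other cells differed between the groups as well. T cell identity genes were present throughout, with summed levels of 3918 to 4563 CPM in CP CML and 4903 to 5215 in BC CML, and of 10 tested genes 4 were higher and 2 lower. Trac, Trbc1 and Trbc2 were not analysed here. Lck, the kinase of the antigen receptor, had 777.3 and 848.1 CPM (not called), and Cd8a rose from 688.9 to 1263 CPM. All 7 naive T cell genes fell, with summed levels of 4890 to 6238 CPM in CP CML and 2683 to 3852 in BC CML, and Tcf7 went from 1971 to 1239 CPM. Of 12 memory and effector genes 10 were higher and 1 lower, with sums of 952.2 to 1169 and 1698 to 2429 CPM, and Il2rb rose from 518.2 to 953.7 and Cd44 from 169.6 to 198.1 CPM. Of 6 regulatory T cell genes 2 were higher and 3 lower, with overlapping sums of 493.2 to 550.7 and 446.1 to 599.9 CPM, and a median log2 fold change of -0.26. Ikzf2, which gave the largest part of these sums, rose from 202.8 to 311.6 CPM, and Il2ra was at 80.9 and 88.2 (not called). The remaining genes, named after their values were seen, were Foxp3, the defining factor of these cells, which fell from 94.2 to 28.5 CPM, Ctla4, which fell from 65.5 to 25.9, Tnfrsf4, which fell from 31.7 to 20.3, and Tnfrsf18, which rose from 51.2 to 63.1.

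Markers listed for other cell types were also called higher in BC CML, and none was called lower. The paper lists an NKT cluster among its T cells, so the NK cell markers need not mark cells outside the sort. Of 14 myeloid genes 13 were higher and none lower, none was at 0 in all 14 mice, and their sums were 75.6 to 734.2 CPM in CP CML and 851.7 to 2253 in BC CML, with S100a9 rising from 67.5 to 284.0 CPM and Ngp from 68.6 to 248.3. B cell markers (6 of 7 higher, none lower) summed to 56.5 to 168.5 and 99.2 to 495.6 CPM, with Cd22 rising from 31.1 to 75.7 and Ms4a1 from 17.4 to 54.1. NK cell markers (4 of 4 tested higher) summed to 52.6 to 74.1 and 139.8 to 258.7 CPM, with Klrb1c rising from 49.7 to 146.5 and Klra7 from 10.1 to 20.4, and Klra4 was at 0 in all mice. Basophil, mast cell and progenitor markers (2 of 4 tested higher) summed to 4.86 to 10.9 and 19.2 to 49.6 CPM, with Kit rising from 3.77 to 25.4 and Cpa3 from 1.05 to 3.31. Erythroid markers (1 of 4 tested higher) summed to 15.2 to 62.9 and 41.4 to 71.7 CPM, and Hbb-bs, at 30.4 and 40.3, and Hba-a2, at 7.33 and 9.34, were not called. Hba-a1 and Hbb-bt were not analysed here.

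These marker levels move with the same 2 groups as the feedback inhibitors, and their part in the differences was not tested. The CP CML and the BC CML mouse nearest to each other in myeloid level were CP CML replicate 8, with a sum of 734.2 CPM, and BC CML replicate 1, with 851.7. In this CP CML mouse Dusp6 was 36.4, Dusp16 7.74, Spry2 6.10 and Spred1 18.0 CPM, all but Spry2 inside the range of the other CP CML mice. In this BC CML mouse they were 119.1, 17.5, 14.9 and 29.2. Within BC CML, Dusp16 had r = 0.91 with the myeloid sum (exact permutation p = 0.0167, adjusted 0.312), Spearman's coefficient = 0.94 (exact p = 0.0167) and r = 0.75 without the 2 farthest mice. Spred1 had r = 0.91 (exact permutation p = 0.0167, adjusted 0.312), Spearman's coefficient = 0.77 (exact p = 0.103) and r = 0.84 without those mice. Of the other genes that rose, Dusp1 had r = -0.71 in BC CML (exact permutation p = 0.11) and Spearman's coefficient = -0.71 (exact p = 0.136), Dusp2 r = -0.66 (exact permutation p = 0.160) and Spearman's coefficient = -0.60 (exact p = 0.242), Dusp6 r = -0.49 (exact permutation p = 0.312) and Spearman's coefficient = -0.37 (exact p = 0.497), and Spry2 r = 0.45 (exact permutation p = 0.361) and Spearman's coefficient = 0.31 (exact p = 0.564). Without the 2 farthest mice r was -0.35 for Dusp1, -0.87 for Dusp2, 0.04 for Dusp6 and 0.20 for Spry2, so the sign of Dusp6 rested on those mice. Within CP CML the pairs of Dusp16 and Spred1 had r = 0.40 (exact permutation p = 0.328) and Spearman's coefficient = 0.29 (exact p = 0.501) for Dusp16, with r = 0.29 without the 2 farthest mice, and r = 0.55 (exact permutation p = 0.164) and Spearman's coefficient = 0.38 (exact p = 0.360) for Spred1, with r = -0.11 without those mice, a change of sign. Spry2 had r = 0.60 (exact permutation p = 0.104), Spearman's coefficient = 0.60 (exact p = 0.132) and r = 0.44 without the 2 farthest mice. Dusp6 had r = -0.82 with the naive T cell sum in CP CML (exact permutation p = 0.0148), Spearman's coefficient = -0.90 (exact p = 0.00456) and r = -0.95 without the 2 farthest mice. In BC CML it had r = -0.48 (exact permutation p = 0.344) and Spearman's coefficient = -0.26 (exact p = 0.658), and r = 0.59 without the 2 farthest mice, again a change of sign. None of these relations passed after adjustment over the 150, which a single relation in BC CML could not do at any r.

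The promoters of the 10 genes were compared for sequence features that the choice of genes did not use. RefSeq promoters of GRCm38.p6, from 250 bases before to 50 bases after the start, were at hand for 9 of the 10 (not Dusp4), among 32851 promoters in all. This background was not limited to the genes tested here, while all 9 were tested. Those of the 9 were rich in G and C, at 57.3% to 72.3% with a median of 66.7% against a median of 52.7% over all, and held 19 to 40 CpG pairs with a median of 28 against 7. Each motif was searched on both strands. The cyclic AMP response element TGACGTCA was found in the promoter of Dusp1 alone and in 1.79% of all promoters, and the shorter TGACG, which it contains, in 4 (Dusp1, Dusp2, Dusp5 and Dusp16) and in 20.8% of all. CCAAT was found in 4 (Dusp6, Dusp10, Dusp16 and Spry1) and in 37.4% of all, and none of the 9 held the AP-1 motif TGANTCA (7.81% of all), the ETS motif CCGGAAGT (3.89% of all) or the TATA box TATAAA (13.6% of all).

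The stretches around 2 of these matches are printed 5′ to 3′ on the strand of the gene, the match in capitals, for the only full response element found and for Dusp6, the ERK-selective phosphatase that rose. In Dusp1 the match lies 143 to 136 bases before the start, within chr17:26508582-26508641 (minus strand), and in Dusp6 the CCAAT match lies on the opposite strand, 46 to 42 bases before the start, within chr10:99263159-99263215 (plus strand).
Dusp1: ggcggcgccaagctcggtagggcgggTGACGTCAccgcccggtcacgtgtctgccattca
Dusp6: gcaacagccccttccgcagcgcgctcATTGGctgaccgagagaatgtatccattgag

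Of the genes with a seed match, Dusp16, Spred1 and Dusp2 had log2 fold changes of 1.50, 0.82 and 0.83. The 7 without one were Spry2 (1.99), Dusp6 (1.42), Dusp1 (0.41), Dusp4 (0.04), Dusp5 (-0.06), Dusp10 (-0.27) and Spry1 (-0.34). Over all tested genes with an annotated 3′UTR the median log2 fold change was 0.15 with any match to the 3p arm and -0.02 without, and 0.23 with its 8-base match and -0.01 without. For the 5p arm it was 0.05 with any match and -0.02 without, and 0.05 with its 8-base match and -0.01 without. The part of the missing microRNA in these differences was not tested.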

How the data were processed

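Spleen T cells of 8 CP CML and 6 BC CML mice gave 1 mRNA library each (paired ends, 101 bases per read). Before deposit, the authors removed adapters (Trimmomatic) and polyA tails (FASTP), aligned to mm10 with STAR 2.6.0 and deposited raw counts per gene from HTSeq 0.11.1 (versions from the submitters' processing notes), with no normalization. The annotation and strand setting are not given in the sources used here.

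The deposited counts went into R 4.3.3, with edgeR 4.0.16 (which uses limma 3.58.1): filterByExpr by group (12248 of 24091 genes kept), TMM, robust quasi-likelihood test of all 14 samples without covariates, Benjamini-Hochberg adjustment over all tested genes, threshold 0.05. The study used edgeR's likelihood ratio test, which was run as an alternative, as were a replicate block, DESeq2 1.42.0, scaling by RLE or by library size only, each mouse left out, a filter of above 1 CPM in 6 or more samples, and no such filter. A standard error was taken from the fold change and its F statistic, and 95% intervals from that error. Correlations used exact permutation tests of log2 CPM without a prior count. The nearest profiles and the comparison of same-numbered mice used log2 CPM with a prior count of 2 in edgeR.

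The 10 genes and all lists were chosen with earlier results of these data known. Genes were named by rule: the 10 genes and Mir142, all listed relatives, per pathway list the 3 called genes with the largest absolute log2 fold change at an average log2 CPM of at least 1, per marker list the 2 with the highest mean CPM (1 of these is not reported here), and per called inhibitor with an absolute log2 fold change of at least 0.5 the 2 nearest profiles at an average log2 CPM of at least 3. Replicates differed by more than sampling noise (chi-square per degree of freedom 2.99 to 20.8 in CP CML and 7.89 to 21.6 in BC CML), so none was counted as a repeat.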

Additional observations from a re-analysis of the deposited data

Results flagged for a closer look

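In BC CML the highest Dusp2 value, 180.7 CPM in replicate 3, stood apart from the other 5 mice, the next of which had 153.4 CPM: the gap was 0.703 of the group's whole range. The mouse lies on the side away from the CP CML mice, and without it the log2 fold change stayed positive and called, within the range of 0.78 to 0.91 over the mice left out in turn. The lowest read total of BC CML, 16145537 in replicate 2, stood apart from the next, 18319039, by 0.668 of the range. This mouse had 118.7 CPM of Dusp6 and 28.9 CPM of Spry2, both at the high end of its group. These are 2 of the 50 groups of values examined, and chance alone would mark about 2.5.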

How the results depend on the processing

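Over the 7 other tests, scalings and filters, and with each mouse left out in turn, Dusp2, Dusp6, Dusp10, Dusp16, Spry2 and Spred1 kept their direction and call. The count of these 10 genes called was 6 to 7 under the alternatives and 6 to 8 with a mouse left out, against 7, and for 5 of them the groups did not overlap, also with library size alone or with any mouse left out. Genes called over the whole table numbered 7318 to 8719 and 7721 to 7966. Dusp1 lost its call with no filter on low counts (0.41, adjusted p = 0.0586) and without any of 8 mice (log2 fold change 0.33 to 0.51 over all mice left out). Dusp4, never called, changed sign without CP CML replicate 8 (-0.00707), BC CML replicate 5 (-0.0692) and BC CML replicate 6 (-0.00485), with a range of -0.0692 to 0.128 over all mice left out, and Spry1 passed the threshold without BC CML replicate 5 (-0.47), so that the count of lower genes ran from 1 to 2. The median of all tested genes moved between -0.02 and 0.03. The causes were not tested. The replicate numbers do not pair the mice: the deviations of same-numbered mice had a mean correlation of -0.02 over 6 pairs (-0.27 to 0.36, with 2 of 6 over 0.1). With the replicate number as a block, Dusp1 had a log2 fold change of 0.36 and an adjusted p of 0.114, no other of the 10 calls changed, and 3 of the 4 tested relatives were called. Spry1 (53 to 169 reads per mouse) and, in CP CML, Spry2 (59 to 105) rest on few reads.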
